A study of Rattus norvegicus with 42 samples.

Results

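The fibroblast growth factor (FGF) pathway was followed in rat retina through 10 genes: the ligands Fgf1 and Fgf2, the receptors Fgfr1 and Fgfr2, the ETS transcription factors Etv4 and Etv5, and the feedback inhibitors Spry2, Spry4, Dusp6 and Spred1. The genes were chosen by name for their role in the pathway and make up 10 of the 32623 genes of the count matrix. Earlier results of these data were known at that choice, so counts of the 10 beside all genes are descriptions. All 10 were among the 18094 genes with enough counts to be tested. The study compared 6 groups of adult animals to ask how intense light changes the retina and whether nanoceria, particles of cerium oxide, alter that change. Control rats were untreated, and light damage rats were exposed to 15000 lux for 24 h without any injection. Vehicle and nanoceria rats received an injection into the vitreous, of carrier or of 1 mM nanoceria, and stayed out of the damaging light, while the vehicle plus light and nanoceria plus light rats received the same injections and the same light exposure. Strain, sex and exact age are not given in the labels.

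FGF ligands bind receptor tyrosine kinases together with heparan sulphate, and the receptors signal through RAS and the kinase ERK. ERK activity turns on Etv4 and Etv5 and also the Sprouty, SPRED and dual-specificity phosphatase genes, whose products dampen the same pathway, so that the transcripts of these targets are widely used as a readout of it. In the retina FGF2 is known as a survival factor for photoreceptors that is made after injury by Mueller glia, the support cells that span the tissue, and by photoreceptors themselves.

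The groups without light held 5 control, 5 vehicle and 4 nanoceria libraries, and those with light 7 uninjected, 5 vehicle-injected and 5 nanoceria-injected libraries, with 25158407 to 182162368 counts each. Vehicle replicates 4 and 7 had nearly the same counts (chi-square per degree of freedom over genes 4.40), as did light damage replicates 4 and 7 (10.5), against 70.5 for the next closest pair of libraries. Both pairs exceeded sampling noise and were kept as separate libraries, which does not show that they came from different animals. The main p-values, SDs and sample sizes count each library as independent. Results that changed when each pair was summed to 1 library are given with that value. Rhodopsin, the rod pigment that defines the tissue, was present in every library, at 16093 to 29623 CPM (counts scaled to a normalised library size) in control and 3873 to 8136 in light damage. The summed level of 9 rod genes was 29716 to 56285 CPM in control and 9816 to 18654 CPM in light damage. In whole retina, fewer cells of a type cannot be told apart from less RNA per cell, and the loss of abundant rod transcripts raises the share of the others. These levels and those below are CPM scaled by the TMM method. No level is compared between genes because transcript lengths for the files' genome build were not used here.

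Start-site sequences were read to show the region upstream of genes that were called with light in all 3 light comparisons described below. RefSeq windows of the rat assembly GRCr8 were matched for 8 of the 10 genes, and not for Fgfr1 and Etv4. Of these 8, Fgf1 had too few upstream bases in its window and was not searched. The windows below hold the 250 bases before the annotated start of Fgf2 (chr2:122164204-122164453, plus strand) and Spry2 (chr15:89111927-89112176, minus strand), the ligand and the inhibitor among the 10 genes with the largest rises without injection, and of Fgfr2 (chr1:194280915-194281164, minus strand), which fell. They are written 5′ to 3′ on the strand of the gene, and capitals mark a match to a STAT motif (TTCNNNGAA) in Fgf2 and to an ETS motif (CCGGAA) in Spry2.
Fgf2: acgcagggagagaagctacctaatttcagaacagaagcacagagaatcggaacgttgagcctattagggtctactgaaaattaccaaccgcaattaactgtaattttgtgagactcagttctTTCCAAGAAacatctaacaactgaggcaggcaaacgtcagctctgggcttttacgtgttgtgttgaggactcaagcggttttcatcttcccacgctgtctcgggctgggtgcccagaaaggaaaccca
Spry2: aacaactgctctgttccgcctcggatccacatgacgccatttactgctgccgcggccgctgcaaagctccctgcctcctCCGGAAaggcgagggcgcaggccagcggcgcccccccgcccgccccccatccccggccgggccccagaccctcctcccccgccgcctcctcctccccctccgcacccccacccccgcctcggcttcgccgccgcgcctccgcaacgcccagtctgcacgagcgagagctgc
Fgfr2: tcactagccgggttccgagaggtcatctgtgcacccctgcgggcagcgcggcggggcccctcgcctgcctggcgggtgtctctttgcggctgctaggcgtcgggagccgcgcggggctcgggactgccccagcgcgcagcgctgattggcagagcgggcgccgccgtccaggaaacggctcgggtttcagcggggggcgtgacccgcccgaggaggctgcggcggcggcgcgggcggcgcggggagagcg
Both strands were searched for 4 motifs: the ETS motif, the STAT motif, an AP-1 motif (TGANTCA) and a cAMP element (TGACGTCA). Of 19339 RefSeq windows of 250 bases, 10.6% held the ETS motif, 8.06% the STAT motif, 6.9% the AP-1 motif and 1.42% the cAMP element. Spry4, the second Sprouty gene raised by light, held 1 ETS and 1 STAT match in its window. Fgfr2 and Spred1 held no match in 250 bases, and neither did the shorter upstream windows of Etv5 (158 bases) and Dusp6 (148 bases). A match of such letters is a description of the window only.

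**Figure D1:**
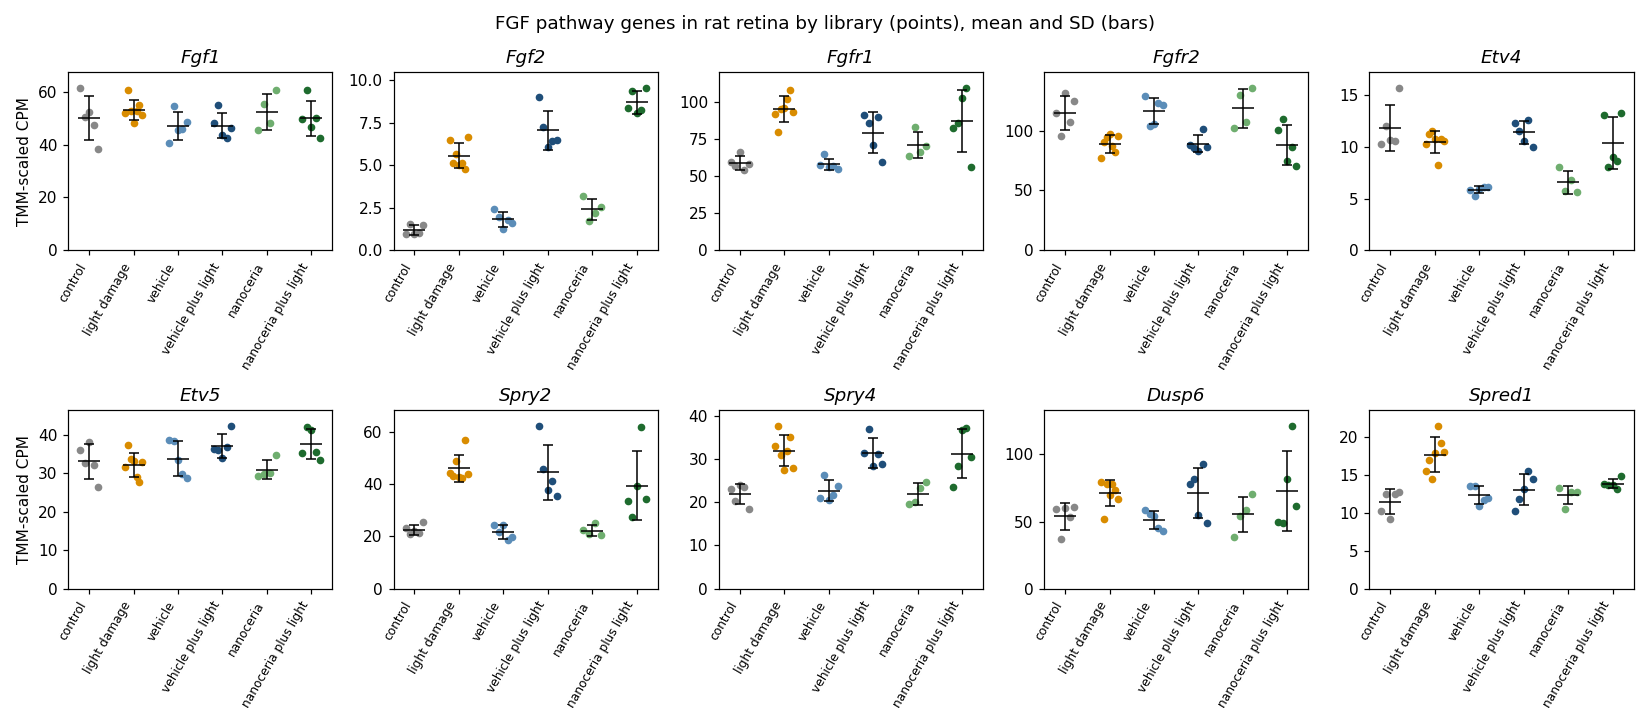
Level of each of the 10 genes (y axis, TMM-scaled CPM) in every library (points) of the 6 groups (x axis), with the group mean and SD as bars. Fgf2 is higher in all light-exposed libraries than in all unexposed ones, and Etv4 is lowest in the vehicle and nanoceria groups.

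Light was compared within each injection state, in 3 comparisons that share no libraries. A gene was called when the adjusted p of edgeR's quasi-likelihood test, corrected over all 18094 genes by the Benjamini-Hochberg method, was under 0.05. Light damage against control called 5 of the 10 genes higher and 1 lower, where 22.5% of all tested genes were called. Vehicle plus light against vehicle also called 5 higher and 1 lower, against 16.8% of all genes, and nanoceria plus light against nanoceria called 4 higher and 1 lower, against 13.9%. Across the 10 genes the median log2 fold change was 0.47, 0.46 and 0.34 in these comparisons, beside -0.01, 0.02 and 0.04 over all tested genes. Fgf2, Spry2 and Spry4 rose and Fgfr2 fell in all 3 comparisons, 4 of 10 genes, where 8.79% of all genes were called in the same direction in all 3. A fit of the nanoceria and nanoceria plus light libraries alone called 1 of the 10 genes, Fgf2, in place of 5. Over all genes, that fit called 649 higher and 458 lower, in place of 1474 and 1046.

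**Figure D2:**
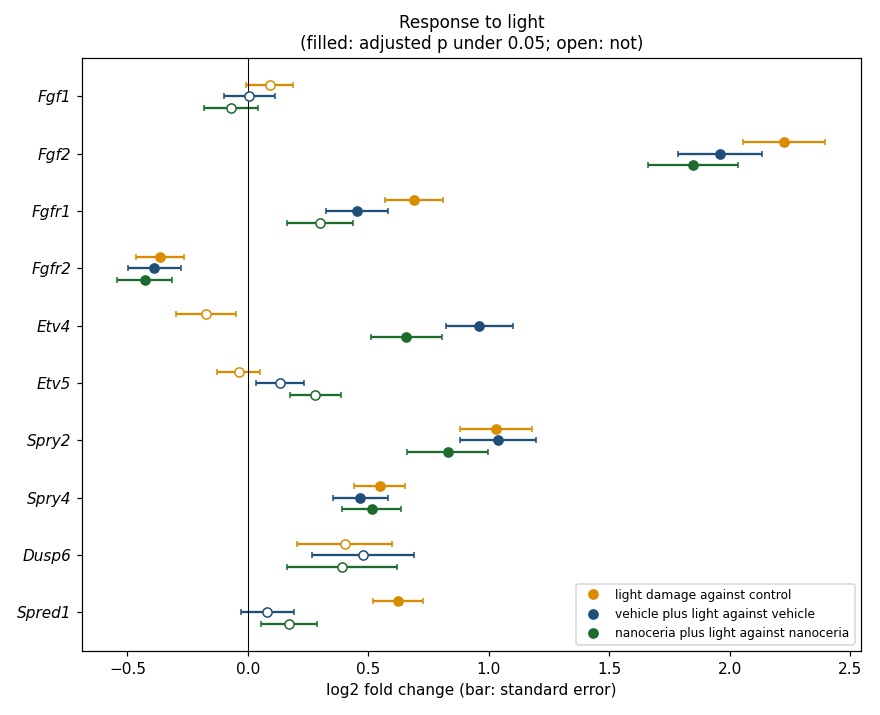
Log2 fold change with light (x axis, bars are the standard error) of the 10 genes (y axis) without injection, after vehicle and after nanoceria. Filled points passed an adjusted p of 0.05: Fgf2 lies at 1.85 to 2.23 in all 3 comparisons, while Etv4 passed only in the comparisons within injected groups and Spred1 only without injection.

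Fgf2, the injury-responsive ligand, had the largest change of the 10 genes. Its level was 0.953, 1.53, 0.934, 1.01 and 1.48 CPM in the 5 control libraries and between 4.80 and 6.66 CPM, with a median of 5.15, in the 7 light damage libraries. The vehicle libraries held 2.43, 1.95, 1.27, 1.80 and 1.60 CPM and the vehicle plus light libraries 8.998, 7.26, 6.08, 6.41 and 6.496 CPM. No exposed library overlapped an unexposed one in either pair of groups. The nanoceria libraries held 3.17, 1.73, 2.20 and 2.56 CPM and the nanoceria plus light libraries 8.35, 9.34, 8.06, 8.24 and 9.54 CPM, again without overlap. With light, Fgf2 rose by a log2 fold change of 2.23 ± 0.17 (SE; 4.68-fold, edgeR adjusted p = 2.33e-10) without injection, 1.96 ± 0.17 (3.89-fold, adjusted p = 5.12e-09) after vehicle and 1.85 ± 0.19 (3.60-fold, adjusted p = 9.18e-08) after nanoceria. The 3 rises did not differ by a called amount: the response after vehicle minus that without injection was -0.27 ± 0.23 (95% interval -0.74 to 0.21), and after nanoceria it was -0.38 ± 0.24 (-0.87 to 0.11).

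The gene Nudt6 overlaps Fgf2 in the RefSeq annotation and is known as its antisense partner, and the strand setting of the counting is not given in the sources used here. How reads of the overlap were assigned is therefore not known. Nudt6 went from 4.55 ± 0.30 CPM (SD, n = 5) in control to 6.79 ± 0.57 CPM (n = 7) in light damage. It rose by a log2 fold change of 0.58, 0.59 and 0.48 in the 3 light comparisons (adjusted p = 2.99e-05, 7.34e-05 and 0.00212, edgeR).

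Fgf1, the other prototype ligand, showed no called change with light. Its group means lay between 46.97 ± 5.17 CPM (SD, n = 5) in vehicle and 53.1 ± 3.9 CPM (n = 7) in light damage, and every group overlapped every other to which it was compared. The log2 fold changes with light were 0.09 (95% interval -0.11 to 0.29) without injection, 0.01 (-0.21 to 0.22) after vehicle and -0.07 (-0.30 to 0.16) after nanoceria. Fgf1 overlaps Arhgap26 in the RefSeq annotation, and Arhgap26 fell after vehicle and after nanoceria by 0.36 and 0.33 on the log2 scale (adjusted p = 0.00639 and 0.0212, edgeR).

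The receptors moved in opposite directions. Fgfr1, a receptor tyrosine kinase bound by both ligands, was at 59.8, 57.2, 66.6, 53.9 and 58.6 CPM in control and at 80.3 to 109 CPM, with a median of 95.5, in light damage, without overlap. It was at 57.9, 64.7, 56.3, 57.3 and 54.8 CPM in vehicle and at 91.6, 85.7, 71.1, 90.0 and 59.6 CPM in vehicle plus light. The lowest exposed library after vehicle, replicate 6, lay within the range of the unexposed ones. Fgfr1 rose by a log2 fold change of 0.69 ± 0.12 (SE; 1.61-fold, adjusted p = 0.000107) without injection and by 0.45 ± 0.13 (1.37-fold, adjusted p = 0.0146) after vehicle. After nanoceria the change was 0.30 ± 0.14 and did not pass (adjusted p = 0.16), with nanoceria plus light libraries spread from 56.0 to 110 CPM around unexposed values of 63.7 to 83.6 CPM. The differences between these responses were not called (adjusted p = 0.968 for vehicle and 0.464 for nanoceria, each against no injection). The call after vehicle was lost without vehicle plus light replicate 1 (adjusted p = 0.0511) and without all libraries numbered 1 or 4 (adjusted p = 0.113 and 0.0721), and Fgfr1 after nanoceria was called without nanoceria plus light replicate 5 (log2 fold change 0.42, adjusted p = 0.0143). Fgfr1 after nanoceria also passed without all libraries numbered 5 (edgeR adjusted p = 0.0439) and with limma-voom (log2 fold change 0.36, adjusted p = 0.0425).

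Fgfr2, the receptor that fell, was at 115, 95.4, 131, 108 and 125 CPM in control and at 77.1 to 96.9 CPM, with a median of 90.9, in light damage, where the ranges touched at control replicate 2. It was at 129, 104, 106, 123 and 121 CPM in vehicle and at 88.4, 85.5, 83.1, 102 and 86.7 CPM in vehicle plus light. These groups did not overlap. It was at 103, 130, 108 and 136 CPM in nanoceria and at 101, 110, 74.7, 86.3 and 70.4 CPM in nanoceria plus light, with 1 exposed library inside the unexposed range. Fgfr2 fell by 0.37 ± 0.10 (SE; adjusted p = 0.00786), 0.39 ± 0.11 (adjusted p = 0.0127) and 0.43 ± 0.11 (adjusted p = 0.0114) on the log2 scale in the 3 light comparisons. Scaling by library size alone ended the call in each of them, with adjusted p-values of 0.0781, 0.103 and 0.0631 at log2 fold changes of -0.29, -0.30 and -0.37. After nanoceria, the call was also lost without nanoceria replicate 2 (adjusted p = 0.0510) or replicate 5 (adjusted p = 0.0613). Leaving out all libraries of 1 number ended it without injection for numbers 1 and 6 (adjusted p = 0.0528 and 0.0524), after vehicle for number 1 (0.0634) and after nanoceria for number 5 (0.161).

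The feedback inhibitors Spry2 and Spry4, Sprouty proteins that restrain signalling from receptor tyrosine kinases to RAS and ERK, both rose. Spry2 was at 23.0, 20.9, 22.1, 21.1 and 25.5 CPM in control and at 42.4 to 56.6 CPM, with a median of 43.96, in light damage. It was at 24.1, 21.7, 24.4, 18.5 and 19.5 CPM in vehicle and at 62.03, 45.7, 37.7, 41.2 and 35.5 CPM in vehicle plus light. It was at 22.4, 20.7, 25.04 and 20.3 CPM in nanoceria and at 33.6, 27.5, 39.4, 61.8 and 34.3 CPM in nanoceria plus light. All exposed libraries lay above all unexposed ones in each pair of groups. Spry2 rose by a log2 fold change of 1.03 ± 0.15 (SE; 2.04-fold, adjusted p = 8.57e-06), 1.04 ± 0.16 (2.05-fold, adjusted p = 2.54e-05) and 0.83 ± 0.17 (1.78-fold, adjusted p = 0.00101).

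Spry4 rose less. It was at 23.1, 20.4, 24.1, 23.5 and 18.4 CPM in control and at 27.4 to 37.6 CPM, with a median of 31.8, in light damage. In vehicle it was at 21.0, 26.4, 20.6, 21.7 and 23.8 CPM, below the 31.5, 37.04, 28.4, 31.2 and 28.8 CPM of vehicle plus light. After nanoceria the groups overlapped at 1 library, with 19.6, 20.2, 23.3 and 24.7 CPM unexposed and 23.5, 28.5, 36.7, 37.3 and 30.5 CPM exposed. The log2 fold changes were 0.55 ± 0.11 (SE; 1.46-fold, adjusted p = 0.000346), 0.47 ± 0.11 (1.38-fold, adjusted p = 0.00416) and 0.51 ± 0.12 (1.43-fold, adjusted p = 0.00416).

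Dusp6, the cytoplasmic phosphatase that inactivates ERK, did not pass in any light comparison. Its mean was 53.9 ± 10.1 CPM (SD, n = 5) in control and 71.2 ± 9.7 CPM (n = 7) in light damage. It was 51.1 ± 6.9 CPM (n = 5) in vehicle against 71.2 ± 18.8 CPM (n = 5) with light, and 55.4 ± 13.2 CPM (n = 4) in nanoceria against 72.7 ± 30.1 CPM (n = 5) with light. The libraries of each pair of groups overlapped, and the log2 fold changes had 95% intervals of -0.01 to 0.81, 0.04 to 0.91 and -0.07 to 0.86 (adjusted p = 0.158, 0.133 and 0.289). With limma-voom the first and second passed (adjusted p = 0.0135 and 0.022).

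Spred1, which restrains RAS by recruiting neurofibromin, was called in 1 of the 3 light comparisons. It was at 10.3, 12.5, 9.23, 12.5 and 12.8 CPM in control and at 14.5 to 21.4 CPM, with a median of 17.9, in light damage, without overlap. It was at 13.5, 13.6, 10.9, 11.7 and 11.9 CPM in vehicle and at 10.2, 11.9, 13.2, 15.4 and 14.4 CPM in vehicle plus light, ranges that overlapped widely. Spred1 rose by a log2 fold change of 0.62 ± 0.10 (SE; 1.54-fold, adjusted p = 5.42e-05) without injection, and its changes of 0.08 ± 0.11 after vehicle and 0.17 ± 0.12 after nanoceria did not pass (adjusted p = 0.707 and 0.393). The difference between the responses did not pass either, at -0.54 ± 0.15 for vehicle (adjusted p = 0.347) and -0.45 ± 0.15 for nanoceria (adjusted p = 0.24), each against no injection.

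Of the ETS factors, whose PEA3 subfamily is induced by ERK, Etv5 showed no called change with light. Its group means lay between 30.9 ± 2.5 CPM (SD, n = 4) in nanoceria and 37.6 ± 3.9 CPM (n = 5) in nanoceria plus light, and the log2 fold changes with light were -0.04, 0.13 and 0.28 (adjusted p = 0.821, 0.414 and 0.0754). After nanoceria, Etv5 passed without nanoceria plus light replicate 5 (adjusted p = 0.0495) and with library size alone (adjusted p = 0.0431). Limma-voom called Etv5 after vehicle (adjusted p = 0.012) and after nanoceria (adjusted p = 0.022).

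Etv4, the other ETS factor, had a pattern over the 6 groups unlike that of Fgf2. It was at 10.3, 12.0, 10.7, 10.6 and 15.7 CPM in control and at 8.27 to 11.5 CPM, with a median of 10.7, in light damage, ranges that overlapped. It was at 5.81, 5.30, 5.93, 6.15 and 6.11 CPM in vehicle and at 12.3, 11.5, 10.5, 12.6 and 9.999 CPM in vehicle plus light, without overlap. It was at 8.07, 5.77, 6.84 and 5.67 CPM in nanoceria and at 13.0, 8.04, 9.05, 8.60 and 13.2 CPM in nanoceria plus light, where the ranges touched. Light thus came with a log2 fold change of -0.17 ± 0.13 (SE; adjusted p = 0.369) without injection, 0.96 ± 0.14 (1.95-fold, adjusted p = 1.03e-05) after vehicle and 0.66 ± 0.15 (1.58-fold, adjusted p = 0.00243) after nanoceria.

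The difference between these responses was tested as an interaction. The response of Etv4 after vehicle minus that without injection was 1.14 ± 0.19 on the log2 scale (SE; 95% interval 0.75 to 1.52, adjusted p = 0.00849), the only one of the 10 genes to pass, where 0.0442% of all genes were called. For nanoceria against no injection it was 0.83 ± 0.19 (0.44 to 1.23, adjusted p = 0.0476), again the only one of the 10, against 0.409% of all genes. No gene was called for nanoceria against vehicle (0% of 18094; 415 genes and 0 of the 10 had an unadjusted p under 0.05 in edgeR), where Etv4 gave -0.30 ± 0.20. The vehicle interaction passed with the near-identical pairs summed (adjusted p = 0.0352) and with the lens level as a term (adjusted p = 0.0232), and was lost without all libraries numbered 2, 3 or 4 (adjusted p = 0.0743, 0.0575 and 0.0566). The nanoceria interaction was lost when the pairs were summed (adjusted p = 0.0818), with the lens term (adjusted p = 0.0632) and in 24 of 28 fits that left out libraries, among them each control and each nanoceria library in turn (adjusted p up to 0.121), at log2 values that stayed between 0.65 and 0.94.

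Markers of several cell types were called with light. As background, 22.5%, 16.8% and 13.9% of all tested genes were called in either direction in the 3 light comparisons. Of the 9 rod genes, 8, 7 and 8 were called lower in the 3 light comparisons. The summed reactive glia markers, 3 of 4 listed genes, were 29.99 to 151 CPM in control and 380 to 741 CPM in light damage, 73.8 to 401 CPM in vehicle and 496 to 865 CPM in vehicle plus light, and 189 to 391 CPM in nanoceria and 398 to 782 CPM in nanoceria plus light. None of the rod or reactive glia markers in the file was at 0 in a group. Reactive glia had 3, 2 and 1 of 3 markers called higher. The 8 summed Mueller glia markers were 4907 to 7356 CPM in control and 3791 to 4593 CPM in light damage, with 4 of 8 called lower. After vehicle and after nanoceria 1 of the 8 was called higher and 1 lower, and with nanoceria the sums overlapped, at 4945 to 5510 CPM unexposed and 3693 to 5449 CPM exposed. Of 6 cone markers, 1, 5 and 2 were called lower and 1, 1 and 0 higher. Of 4 pigment epithelium markers, 3, 0 and 0 were called lower, and of 8 microglia markers 2, 0 and 3 lower and 1, 0 and 0 higher. The part of these markers in the changes of the 10 genes was not tested.

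Injection without light was compared with no injection to ask what the procedure and the particles change by themselves. Vehicle and nanoceria against control share the control libraries, and the light comparisons and interactions above use the same unexposed libraries. Vehicle against control called 1 of the 10 genes, Etv4 as lower, where 0.0221% of all genes were called. That background depended on the tool: the Wald test of DESeq2 called 35 genes higher and 17 lower there, and limma-voom 1022 and 1190. Nanoceria against control called Fgf2 higher and Etv4 lower, 2 of 10, against 2.46% of all genes. Both injections together against control called the same pair of genes in the same directions, against 1.07% of all genes.

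**Figure D3:**
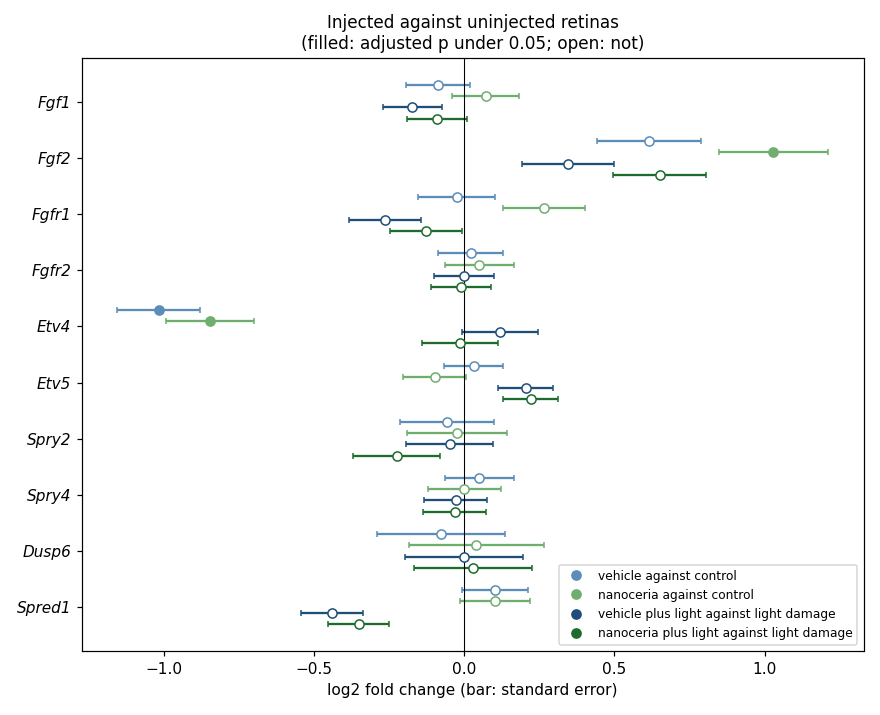
Log2 fold change (x axis, bars are the standard error) of the 10 genes (y axis) in injected against uninjected retinas, without light (vehicle or nanoceria against control) and with light (vehicle plus light or nanoceria plus light against light damage). Filled points passed an adjusted p of 0.05, which were Etv4 with either injection and Fgf2 with nanoceria, all without light.

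Etv4 fell by 1.02 ± 0.14 on the log2 scale after vehicle (SE; fold 0.495, adjusted p = 0.000994) and by 0.85 ± 0.15 after nanoceria (fold 0.556, adjusted p = 0.00276). All vehicle and all nanoceria libraries lay below the lowest control library, at 10.3 CPM. Over both injections the fall was 0.93 ± 0.12 (adjusted p = 0.000136). The 11 summed lens markers had their highest median in the vehicle group, where they lay at 4472 to 31043 CPM against 612 to 7945 CPM in control and 762 to 12081 CPM in nanoceria. High levels of Y-linked transcripts were found in 4 of 5 control, 1 of 5 vehicle and 2 of 4 nanoceria libraries. With the lens level as a term the fall of Etv4 after vehicle was 0.99 (log2 fold change -0.99, adjusted p = 0.0125), and with a term for Y-linked transcripts it was 1.08 (log2 fold change -1.08, adjusted p = 0.000591). A fit of the vehicle and control libraries alone gave -1.001 and an adjusted p of 0.0758.

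Fgf2 rose by a log2 fold change of 1.03 ± 0.18 after nanoceria (SE; 2.04-fold, adjusted p = 0.00324), with all 4 nanoceria libraries above the highest control library at 1.53 CPM. After vehicle the change was 0.61 ± 0.17 and did not pass (95% interval 0.26 to 0.97, adjusted p = 0.329), and over both injections it was 0.82 ± 0.16 (1.77-fold, adjusted p = 0.0116). Nanoceria against vehicle gave 0.41 ± 0.18 (95% interval 0.05 to 0.78, adjusted p = 0.761), and no gene was called in that comparison (0% of 18094; 1021 genes and 2 of the 10, Fgf2 and Fgfr1, had an unadjusted p under 0.05 in edgeR). Limma-voom called 799 genes higher and 687 lower there, among them Fgfr1 (log2 fold change 0.32, adjusted p = 0.0319), and DESeq2 called 24 higher and 16 lower, none of the 10. A fit of the nanoceria and control libraries alone gave 1.06 for Fgf2 after nanoceria, with an adjusted p of 0.0526, and over both injections such a fit gave 0.83 (adjusted p = 0.0592). Without all libraries numbered 1, or numbered 4, the value over both injections was 0.64 (adjusted p = 0.0681) or 0.75 (adjusted p = 0.0924).

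Microglia markers differed between nanoceria and control, with 6 of 8 called higher where 2.46% of all genes were called, at a summed 233 to 369 CPM against 150 to 204 CPM. The summed reactive glia markers were 189 to 391 CPM against 29.99 to 151 CPM, and 0 of 3 were called. Their part in the change of Fgf2 was not tested. The library with the highest Fgf2 level in the vehicle group and that in the nanoceria group, replicate 1 of each, also had the highest lens level of their group, 31043 and 12081 CPM, and the highest summed reactive glia level, 401 and 391 CPM. In control, the library with the most Fgf2, replicate 2 at 1.53 CPM, had the lowest lens and reactive glia levels, 612 and 29.99 CPM. With light, the library with most Fgf2 had its group's highest reactive glia level after vehicle and after nanoceria, but not without injection. In no light-exposed group did it have the highest lens level. Over the 31 libraries, with group means removed, the correlation of Fgf2 with the lens level was -0.06. No correlation with the reactive glia level was computed. With the lens term the change of Fgf2 after nanoceria was 1.03 (adjusted p = 0.00378).

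Among light-exposed retinas, the comparisons with light damage share that group's libraries. Vehicle plus light against light damage called 0 of the 10 genes, where 0.122% of all genes were called, and nanoceria plus light against light damage called 0, against 0.0608%. With edgeR, 4 and 3 of the 10 had an unadjusted p under 0.05, as had 1482 and 1223 of the 18094 tested genes. Spred1 gave -0.44 ± 0.10 (SE; adjusted p = 0.0845) and -0.35 ± 0.10 (adjusted p = 0.258), and Fgf2 gave 0.35 ± 0.15 (adjusted p = 0.563) and 0.65 ± 0.15 (adjusted p = 0.106). The Wald test of DESeq2 called 1 of the 10 in each, Spred1 with vehicle (adjusted p = 0.01) and Fgf2 with nanoceria (adjusted p = 0.0074), beside 41 genes higher and 48 lower in all with vehicle and 33 higher and 56 lower with nanoceria. Limma-voom called Spred1 with vehicle (adjusted p = 0.00487), beside 130 genes higher and 98 lower in all. Without vehicle plus light replicate 4, edgeR called Spred1 as well (log2 fold change -0.51, adjusted p = 0.0463). Every nanoceria plus light library held more Fgf2 than every light damage library, 8.05 CPM or more against 6.66 CPM or less.

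Both injections together against light damage called 1 of the 10 genes, Spred1, lower by 0.39 ± 0.08 on the log2 scale (log2 fold change -0.39, fold 0.761, adjusted p = 0.0227), against 0.486% of all genes. Spred1 was at 13.0 ± 2.1 CPM (SD, n = 5) in vehicle plus light and 13.8 ± 0.6 CPM (n = 5) in nanoceria plus light, against 17.6 ± 2.3 CPM (n = 7) in light damage. Summing the near-identical pairs ended this call (adjusted p = 0.0666), as did leaving out light damage replicate 4, 5, 6 or 7 alone (adjusted p = 0.0531, 0.0768, 0.073 and 0.0556), and it held in 14 of 24 fits that left out libraries.

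Nanoceria plus light against vehicle plus light, the comparison of the particle under damaging light, called none of the 10 genes and 0% of all genes. In edgeR 257 genes and 0 of the 10 had an unadjusted p under 0.05, and neither DESeq2 nor limma-voom called any of the 10. The 95% intervals of the log2 difference ran from -0.04 to 0.65 for Fgf2, from -0.41 to 0.14 for Etv4, from -0.50 to 0.14 for Spry2 and from -0.23 to 0.23 for Spry4. For Dusp6 it ran from -0.40 to 0.46.

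By group mean, Fgf2 was ordered from control (1.18 ± 0.30 CPM, SD, n = 5) through vehicle (1.81 ± 0.43, n = 5), nanoceria (2.42 ± 0.61, n = 4), light damage (5.56 ± 0.74, n = 7) and vehicle plus light (7.05 ± 1.17, n = 5) to nanoceria plus light (8.71 ± 0.68, n = 5). Of the neighbours in this order that were tested, none differed by a called amount, and nanoceria and light damage were not compared. Etv4 was ordered from vehicle (5.86 ± 0.34 CPM, n = 5) and nanoceria (6.59 ± 1.12, n = 4) to nanoceria plus light (10.4 ± 2.5, n = 5), light damage (10.5 ± 1.1, n = 7), vehicle plus light (11.4 ± 1.1, n = 5) and control (11.8 ± 2.3, n = 5). The groups above nanoceria overlapped one another.

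The wider pathway was described with 8 lists of 95 other genes, 82 of them tested. Light called 22 of the 82 higher and 7 lower without injection, 17 higher and 7 lower after vehicle, and 15 higher and 6 lower after nanoceria, and none of the 82 was called in any of the other 11 comparisons. The share of all tested genes called in either direction was 22.5%, 16.8% and 13.9% in these light comparisons, which is the background for the list counts that follow. The median log2 fold change of the 82 genes was 0.07, 0.10 and 0.09, beside -0.01, 0.02 and 0.04 over all tested genes.

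**Figure D4:**
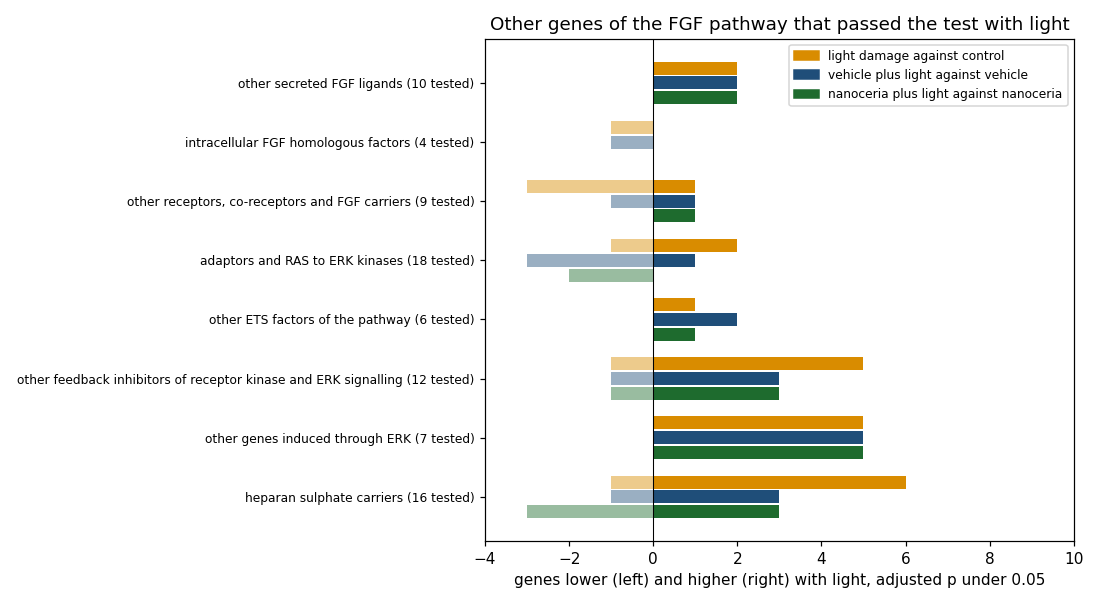
Number of other pathway genes called higher (right, full colour) or lower (left, pale) with light (x axis) in each of 8 lists (y axis) and each light comparison. The genes induced through ERK have 5 of 7 called higher in all 3 comparisons.

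Of 10 other secreted ligands tested, 2 rose in each light comparison, a share near that of all genes. Fgf7, a ligand of an Fgfr2 splice form, rose by a log2 fold change of 1.08, 1.65 and 1.46 (adjusted p = 0.0176, 0.00138 and 0.00932, edgeR), from 0.757 ± 0.298 CPM (SD, n = 5) in control to 1.61 ± 0.50 CPM (n = 7) in light damage. Fgf23, an endocrine FGF, rose by 4.00, 3.20 and 2.76 (adjusted p = 0.000291, 0.00683 and 0.0463) with standard errors of 0.77, 0.83 and 0.93, at levels of few counts, 0.0205 ± 0.0247 CPM in control and 0.328 ± 0.180 CPM in light damage. Of 4 intracellular FGF homologous factors, which are not secreted, Fgf11 fell by 0.53 without injection and 0.55 after vehicle on the log2 scale (adjusted p = 0.00868 and 0.0167), and its log2 fold change of -0.42 after nanoceria did not pass (adjusted p = 0.0955).

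Of 9 other receptors, co-receptors and carriers, 1 rose in each light comparison, and 3, 1 and 0 fell. Flrt3, a membrane protein that interacts with FGF receptors, rose by 0.79, 0.50 and 0.81 on the log2 scale (adjusted p = 3.23e-05, 0.00931 and 0.000232). The carrier gene Fgfbp1 fell by 1.09 without injection (adjusted p = 0.0281), and its log2 fold changes of -0.34 and 0.24 after vehicle and after nanoceria did not pass. Kl, which encodes the FGF co-receptor klotho, fell by 0.71 after vehicle (adjusted p = 0.0206), and its values of -0.32 without injection and -0.55 after nanoceria did not pass. Of 18 adaptors and kinases from RAS to ERK, 3, 4 and 2 were called in either direction, a share near that of all genes. Frs2, the docking adaptor of FGF receptors, rose by 0.18 without injection and 0.18 after vehicle (adjusted p = 0.0296 and 0.0471), and its log2 fold change of 0.19 after nanoceria did not pass.

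Of 6 other ETS factors, Ets2 rose by 0.73, 0.75 and 0.66 on the log2 scale (adjusted p = 0.000516, 0.00105 and 0.00807), from 42.4 ± 9.6 CPM (SD, n = 5) in control to 70.4 ± 8.1 CPM (n = 7) in light damage. Of 12 other feedback inhibitors, 5, 3 and 3 rose and 1 fell in the respective comparisons. Dusp5, a nuclear phosphatase of ERK, rose by 1.13, 0.99 and 1.34 (adjusted p = 7.24e-06, 0.000119 and 9.89e-06), from 32.7 ± 6.9 CPM in control to 71.6 ± 6.6 CPM in light damage. Spred3, a relative of Spred1, rose by 1.36, 1.24 and 1.27 (adjusted p = 1.49e-05, 0.000128 and 0.000348). Dusp4, another nuclear phosphatase of the family, fell by 0.66, 0.76 and 0.48 (adjusted p = 0.000125, 8.54e-05 and 0.0155).

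Of 7 other genes induced through ERK, 5 rose in each light comparison, and the list had median log2 fold changes of 1.82, 1.72 and 1.42. Fosl1, an AP-1 subunit, rose by 4.86, 3.98 and 3.94 (adjusted p = 6.66e-11, 3.00e-09 and 3.27e-08), from 2.16 ± 0.37 CPM (SD, n = 5) in control to 62.3 ± 16.5 CPM (n = 7) in light damage. Ier3, an early-response gene, rose by 1.82, 1.24 and 0.89 (adjusted p = 9.90e-09, 1.02e-05 and 0.00165), and Fos, another AP-1 subunit, by 2.42, 2.29 and 2.61 (adjusted p = 3.86e-05, 0.000158 and 0.000152). Of 16 genes for carriers and enzymes of heparan sulphate, 6, 3 and 3 rose and 1, 1 and 3 fell. Sulf2, an extracellular sulphatase that trims heparan sulphate, rose by 0.47, 0.52 and 0.66 (adjusted p = 0.00138, 0.00151 and 0.000379), and the core protein gene Sdc3 fell by 0.33, 0.49 and 0.71 (adjusted p = 0.0355, 0.00482 and 0.0003).

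Variation within groups was described by the Pearson correlation of log2 CPM over the 31 libraries after the group means were removed. These values share libraries, sequencing depth and tissue composition, and are given as descriptions. The highest values among the 10 genes were 0.67 for Spry2 with Dusp6, 0.62 for Fgfr1 with Dusp6 and 0.50 for Fgfr1 with Spry2 and for Spry4 with Dusp6. Fgf2 had no value above 0.37 with another of the 10, and the lowest value was -0.56, for Fgf1 with Etv4. The summed rod level correlated at -0.72 with Spry2, -0.58 with Fgfr1 and -0.46 with Dusp6, and the summed lens level at 0.42 with Fgfr2.

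**Figure D5:**
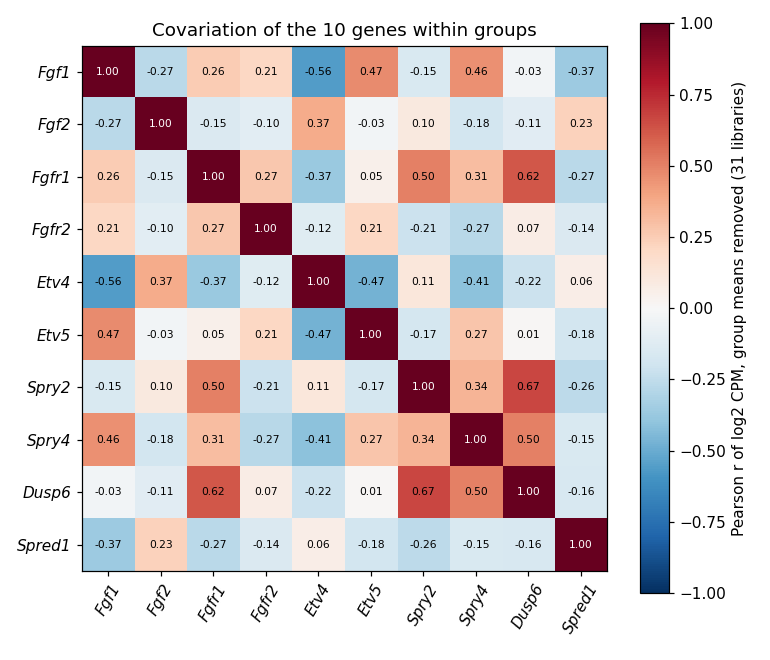
Pearson correlation of log2 CPM between each pair of the 10 genes (both axes) over 31 libraries after removal of group means, from -1 (blue) to 1 (red). Spry2, Fgfr1 and Dusp6 form the pairs with the highest values, 0.50 to 0.67.

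The genes most like 9 of the 10 over the same libraries are given by the same measure. Spry2 was closest to Enc1 (r = 0.89), Clcf1 (0.83) and Map2k4 (0.83), and Fgfr1 to Rarres2 (0.88), Efemp2 (0.87) and Serpinh1 (0.86). Fgf1 was closest to Tdrp (0.87), Aass (0.87) and Arhgef25 (0.86), and Fgfr2 to Wls (0.86), Rapsn (0.83) and Suclg2 (0.81). Etv4 was closest to Fanca, Nhlrc2 and Rgl2 (all 0.76), and Dusp6 to Snx3 (0.85), Coq10b (0.83) and Nip7 (0.83). Etv5 was closest to Emc3 (0.73) and Spry4 to Pdhx (0.74). Fgf2 had the lowest top value of these, 0.61 with Naa30.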

How the data were processed

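PolyA RNA of rat retina was sequenced in 42 labelled samples, of which 31 had a count column that matched 1 sample and 11 were not analysed here. The deposited values are raw counts per gene. Per the submitters' processing notes, the authors used Trimmomatic 0.39, STAR 2.7.9a, featureCounts of Subread 2.0.1, DESeq2 1.30.1, R 4.0 and the rn6 genome. For the strand setting, the annotation release and multimapping reads, the sources used here give nothing.

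Genes were filtered (filterByExpr, minimum count 10, minimum total 15) to 18094, and 14529 were left out. All 31 libraries entered 1 fit of edgeR 4.0.16 in R 4.3.3 (TMM scaling, 1 coefficient per group, robust quasi-likelihood test). There were 14 comparisons: 9 pairwise, 2 of both injections and 3 interactions. Adjusted p-values in the text come from this test, over all 18094 genes, unless another tool is named. Log2 CPM used a prior count of 2. Fits were tested on simulated data. Total counts had a median of 106887932 per library. The labels call the samples biological replicates, and nothing says that replicate numbers pair animals.

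The 10 genes, the lists and the tests were chosen with earlier results of these data known. Named genes were the 10, the 3 genes most like each, and, per list and comparison, the 2 called genes with the smallest adjusted p, of which the text gives a selection. Some genes under this rule are not reported here. Genes overlapping one of the 10 were added after the values were seen. Alternatives were DESeq2 1.42.0 (its size factors or its Wald test), limma-voom of limma 3.58.1, library size alone, no low-count filter, only the groups compared, summed near-identical pairs, terms for lens or Y-linked transcripts, a replicate block and leaving out libraries.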

Additional observations from a re-analysis of the deposited data

Results flagged for a closer look

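Etv4 stood out because its response to light differed between injection states by a direct test. That test used the same vehicle, nanoceria and control libraries as the falls of Etv4 after injection without light. Those falls are therefore not independent of it. Mean Etv4 was 10.4 to 11.4 CPM in the light-exposed groups, beside 11.8 CPM in control, 5.86 CPM in vehicle and 6.59 CPM in nanoceria. The response after vehicle exceeded that without injection by 1.14 on the log2 scale, and the response after nanoceria exceeded it by 0.83 (edgeR quasi-likelihood test, adjusted p = 0.00849 and 0.0476). The vehicle value lost its call with the replicate block (adjusted p = 0.0557) and without all libraries numbered 2, 3 or 4. The nanoceria value was called in 3 of 10 other settings and in 4 of 28 fits that left out libraries, with adjusted p up to 0.247.

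Single libraries stood apart from their group in 3 of 60 sets of libraries, each set being 1 gene in 1 group, and chance flags about 1 in 20. Fgfr2 was at 102 CPM in vehicle plus light replicate 4, with the next library at 88.4 CPM. Etv4 was at 8.27 CPM in light damage replicate 5, with the next at 10.3 CPM. Etv5 was at 34.7 CPM in nanoceria replicate 5, with the next at 30.1 CPM.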

How the results depend on the processing

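No value of the 10 genes reversed a called direction. Of single-gene values, 70 lost and 18 gained the adjusted p threshold under an alternative. The light calls of Fgf2 held in all 10 other settings of each light comparison, as did the falls of Etv4 in nanoceria and in both injections against control. In fits of the compared groups alone, the number of the 10 genes called was 1 in place of 5 for nanoceria plus light against nanoceria, where Etv4, Spry2, Spry4 and Fgfr2 missed at adjusted p-values of 0.083, 0.0553, 0.0747 and 0.136. It was 0 in place of 1 for vehicle against control, and 1 in place of 2 for nanoceria against control and for both injections against control. The cause was not tested. Limma-voom called 1 in place of 0 for nanoceria against vehicle and for vehicle plus light against light damage, and DESeq2 called 1 in place of 0 for each injection with light against light damage. For both injections with light the count was 2 in place of 1 with either tool, Fgf2 and Spred1, and 0 with library size alone, with near-identical libraries summed and with the replicate block. With the groups compared alone it was 1, Fgf2 in place of Spred1. The Etv4 interaction for vehicle was lost with the replicate block (0 genes in place of 1, Etv4 at adjusted p = 0.0557). That for nanoceria was lost (0 in place of 1) with 7 of 10 settings: the lens term, library size alone, DESeq2 size factors, summed pairs, no low-count filter, the groups compared alone and the replicate block. Leaving out libraries gave 0 to 1 genes for each interaction with no injection as reference, 0 to 1 for both injections with light, 1 to 2 for both without light, and 0 to 1 for vehicle plus light against light damage.

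The replicate block is no paired analysis here: same-numbered libraries of different groups had correlations of -0.35 to 0.38 over 60 pairs, and in 1 of 15 pairs of groups, vehicle plus light and nanoceria, did every pair exceed 0.1. With the block the number of the 10 genes called was 6, 6 and 5 in the 3 light comparisons, as without it. Over all genes, the block gave 1973 higher and 1755 lower, 1567 and 1204, and 1344 and 928 in these comparisons. Library size alone moved the median log2 change of all genes after vehicle from 0.02 to 0.12 and the called genes from 1749 higher and 1297 lower to 2434 and 688. It moved the split without injection from 2147 and 1927 to 2371 and 1100, and DESeq2 size factors moved that after nanoceria from 1474 and 1046 to 1115 and 1306. Of the 10 genes, Fgf2 had the fewest counts, 65 in its lowest control library.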
